A study of Arabidopsis thaliana with 12 samples.

Results

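The graded trend described here runs across the 9 *gun1-102* libraries of the study, 3 each of green (*gun1G*), marbled (*gun1M*) and white (*gun1W*) material, out of 12 libraries in all. Each nuclear gene was fitted against a bleaching score of 0 for *gun1G*, 1 for *gun1M* and 2 for *gun1W*. Of the nuclear gene models, 17371 passed a filter of at least 1 TPM (transcript abundance relative to the total of the library) in at least 3 of the 9 libraries. The question was which of these genes changed evenly with bleaching, which stood in marbled material where they stood in white, and which stood there where they stood in green.

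All 9 libraries share the genotype *gun1-102*, a T-DNA insertion in *GUN1*, in the ecotype Col-0. The 3 groups differ only in the colour that the labels give to the cotyledons. The seedlings were sampled at day 4 after growth in a cycle of 16 h days and 8 h nights on MS plates holding 1% sucrose; the temperature was 22 °C and the light 100 µmol per square metre and second. The other 3 libraries are of the wild type Col-0 in the same conditions and served for orientation only. The study speaks of seedlings where the labels name the tissue as cotyledon.

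GUN1 is a pentatricopeptide repeat protein of the chloroplast that is known for its part in retrograde signalling, the route by which the state of the plastid alters transcription in the nucleus. When chloroplast development is blocked, wild-type seedlings lower the transcripts of nuclear photosynthesis genes, and *gun* mutants lower them less. A bleached cotyledon lacks working chloroplasts. The labels do not say how green and pale tissue is arranged in a marbled one. In RNA of a whole marbled sample, fewer cells of a kind and less RNA per cell cannot be told apart.

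TPM sums to the same total in each library, so what plastid and mitochondrial transcripts lose is shared out over all others. Mitochondrial gene models took 22.1 to 23.9% of TPM in *gun1G*, 18.1 to 26.9% in *gun1M* and 13.2 to 16.1% in *gun1W*, a difference that was not tested. The plastid share of all TPM was 38.4 to 41.5% in *gun1G*, 27.7 to 34.6% in *gun1M* and 9.29 to 12.5% in *gun1W*, which do not overlap (exact permutation test over the 9 libraries, two-sided p = 0.00119, the smallest possible, adjusted p = 0.00357 over 3 library measures). Every library was therefore scaled to its median nuclear gene, by factors of 1.26 to 1.37 in *gun1G*, 0.974 to 1.26 in *gun1M* and 0.581 to 0.751 in *gun1W*. Without the scaling the median nuclear gene lies 0.81 higher in *gun1W* than in *gun1G* on the log2 scale, and all directions below are relative to that median. The marbled libraries were not alike. gun1M 3 had the lowest plastid share of the group and 10.5% of its TPM on AT3G06365, a noncoding RNA of the nucleus, against 1.16 and 0.745% in the other marbled libraries. That RNA took 0.219 to 4.70% in *gun1G*, 0.745 to 10.5% in *gun1M* and 4.02 to 19.5% in *gun1W*, so that the 3 groups overlap (exact permutation p = 0.0488, adjusted p = 0.0488), and its part in the trends was not tested beyond a fit with its share as a term.

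Along the score, 400 genes rose (2.3% of those tested) and 333 fell (1.92%), 4.22% in all, at an adjusted p under 0.05 in limma and at least a 2-fold difference between white and green. The place of marbled was measured as a position, the difference of *gun1M* from *gun1G* divided by that of *gun1W* from *gun1G* on log2 means, which is 0 at the green level and 1 at the white level. Of the rising genes, 17 had a position under 0.25 and so stood near green, 232 one from 0.25 to 0.75, and 151 one above 0.75 and so stood near white. Of the falling genes, 18 stood near green, 222 in between and 93 near white. The median position was 0.685 for rising and 0.574 for falling genes. Over all tested genes it was 0.671, with quartiles of 0.12 and 1.21. A position within 0.1 of either limit was found for 180 rising and 139 falling genes, so these classes are ranges of a continuum rather than groups of their own. The fit across the steps alone put *gun1M* above *gun1G* for 131 genes (0.754%) and below for 90 (0.518%), whereas *gun1W* was above *gun1M* for only 3 (0.0173%) and below for 7 (0.0403%), together 10 genes (0.0576%). At an unadjusted p under 0.05 in limma, 3443 genes (19.8%) passed for the first step and 1646 (9.48%) for the other. The median log2 steps were 0.978 and 0.481 for rising genes and −0.831 and −0.587 for falling genes. Few calls thus do not mean that little changed from marbled to white.

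The models AT2G07000 to AT2G07999 on chromosome 2 lie where the nuclear genome carries a copy of the mitochondrial genome, and their reads cannot be told apart from organelle transcripts. They are few, since 17246 of the 17371 tested models lie outside. These models held 55 of the 400 rising and 2 of the 333 falling genes, 20 of the 131 genes with *gun1M* above *gun1G*, and 56 of the 435 with *gun1W* above *gun1G*. Without them, counts chosen after the data were seen, 345 genes rose, 16 of them near green, 193 in between and 136 near white, and 331 fell, 17 near green, 221 in between and 93 near white. The median log2 position of genes differing between *gun1W* and *gun1G* was then 0.727 for the higher and 0.606 for the lower ones.

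**Figure D1:**
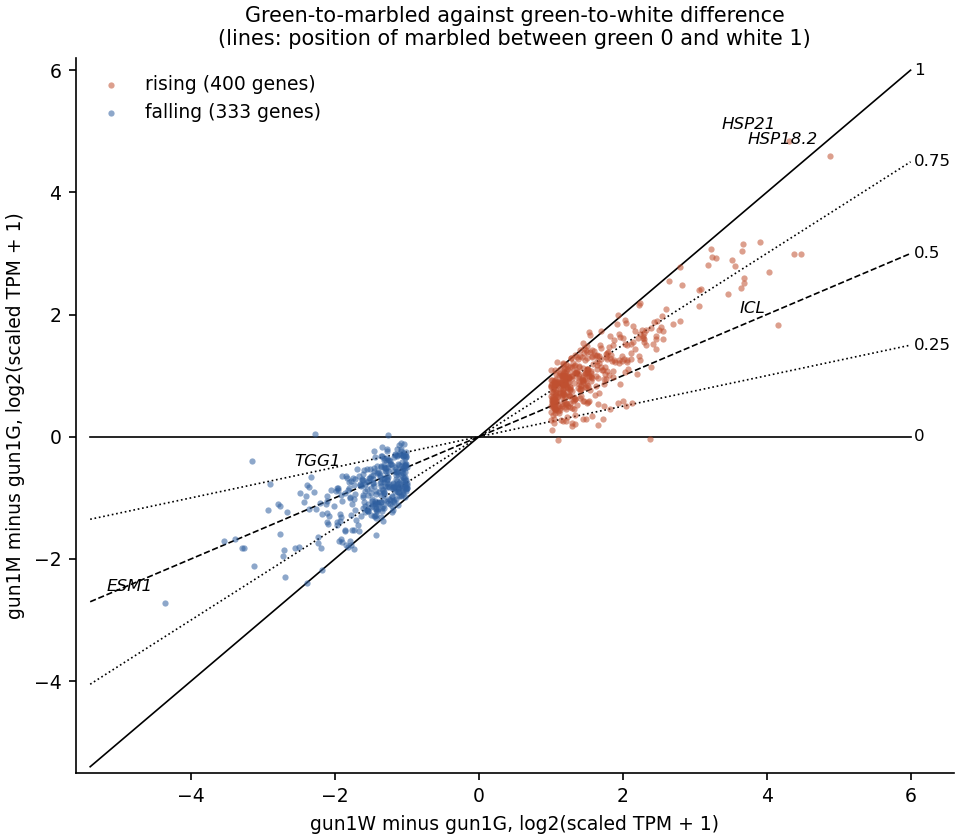
Log2 difference of gun1M minus gun1G (vertical) against gun1W minus gun1G (horizontal) for the 733 genes called along the bleaching score, 1 point per gene, in log2 of scaled TPM + 1. Lines mark positions of 0, 0.25, 0.5, 0.75 and 1; most rising (red) and falling (blue) genes lie between the lines of 0.25 and 1, and HSP21 lies above the line of 1.

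Among the called genes the marbled libraries overlapped the white ones more often than the green ones, as they did over all tested genes. Among rising genes, 222 had marbled libraries that overlapped the white ones and all lay above the green ones (13.1% of all tested genes have this arrangement in either direction), 44 had marbled libraries that overlapped only the green ones (5.47%), and in 104 the 3 groups stood fully apart (2.69%). Among falling genes the shares were 39.6, 14.1 and 37.5%. At an unadjusted p under 0.05, both steps passed for 113 rising and 134 falling genes, only the step between green and marbled for 231 and 136, and only the step between marbled and white for 42 and 58. These counts describe genes already chosen for their difference between the ends.

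Departure from an even gradient was tested as curvature, the marbled mean minus the midpoint of the other means. Only *HSP21* passed (0.00576% of genes, adjusted p = 0.00823 in limma), with 1484 genes at an unadjusted p under 0.05 (8.54%). The typical error bounds what could be seen: the median standard error of curvature was 0.21 for rising genes, whose median difference between white and green was 1.398 on the log2 scale. Among the slope calls, an unadjusted p under 0.05 with marbled nearer white was found for 95 rising genes (23.8%) and 54 falling genes (16.2%), and with marbled nearer green for 6 (1.5%) and 4 (1.2%). By both steps and the curvature, 399 of the 400 rising and 329 of the 333 falling genes could be called neither even nor step-like at 3 libraries per group. Both steps passed the adjusted test in the same direction for AT1G66100, *ESM1*, AT3G21330 and *TGG1*, all falling, and in opposite directions for AT1G73120. The step between marbled and white was the least stable: all 10 of its calls were lost with a replicate block (adjusted p = 0.1275 to 0.2112) and with a filter above 0 TPM (0.06444 to 0.1838), and all but that of AT2G07732 with the AT3G06365 share as a term (0.08547 to 0.1756).

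Where marbled stood also depended on the scale. Over the 435 genes higher (2.5%) and 348 genes lower (2.0%) in *gun1W* than in *gun1G* (4.51% in all), the median log2 position in the 3 marbled libraries was 0.62, 0.725 and 0.749 for the higher genes and 0.582, 0.627 and 0.582 for the lower ones. On linear scaled TPM, it was 0.476, 0.573 and 0.623 for the higher genes and 0.72, 0.757 and 0.723 for the lower ones. Higher genes were thus nearer white than lower genes on the log2 scale and farther from it on the linear scale, in each of the 3 marbled libraries. The count of rising genes near white was 151 on the log2 scale and 99 on the linear scale, with 98 in common, and that of falling genes 93 and 137, with 92 in common. In the Col-0 libraries the median log2 position was −0.0568 to −0.081 for the higher genes and 0.0435 to 0.205 for the lower ones, medians near the green *gun1* level. Single genes spread widely around them. The lower and upper quartiles were −0.38 to −0.336 and 0.143 to 0.158 for the higher genes. For the lower genes they were −0.299 to −0.106 and 0.479 to 0.605.

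**Figure D2:**
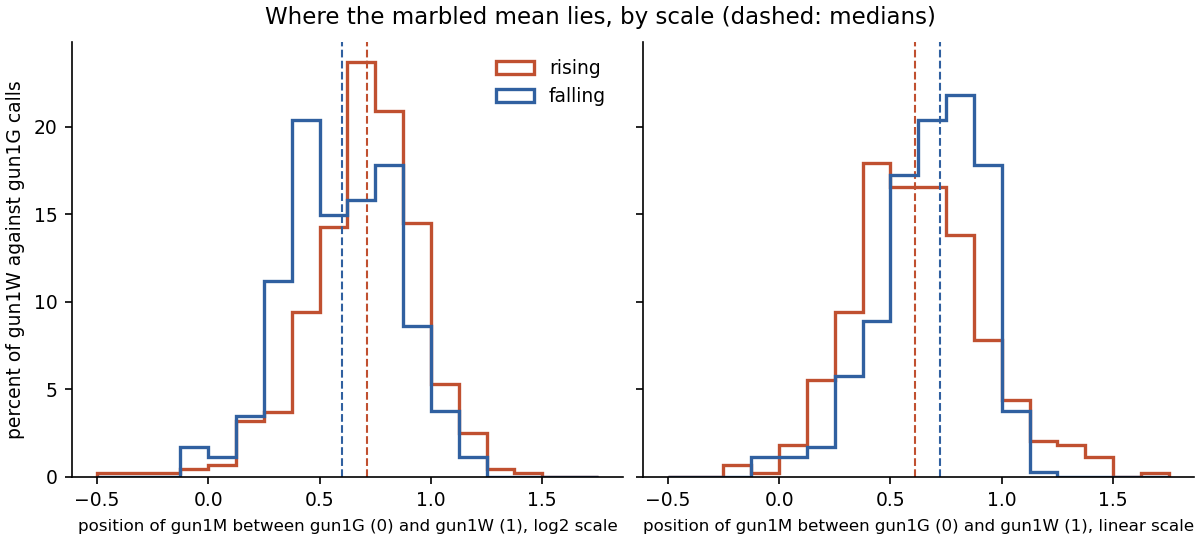
Share in percent (vertical) of the 435 genes higher and 348 genes lower in gun1W than in gun1G, by position of the gun1M mean between gun1G (0) and gun1W (1), on the log2 scale (left) and the linear scale (right); dashed lines are medians. The medians of the higher genes (red, 0.712) and the lower genes (blue, 0.599) on the log2 scale change places on the linear scale, at 0.609 and 0.724.

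Calls of genes with an in-between position were kept more often when 1 library was left out. In all 9 fits that each left out 1 library, 120 of the 232 rising and 137 of the 222 falling genes in between kept their call, against 39 of 151 and 18 of 93 near white, and 1 of 17 and 3 of 18 near green. A straight line counts the distance of a step-like marbled group as error, so its test passes such genes less readily. With genes chosen by *gun1W* against *gun1G* in place of the line, an alternative added after the data were seen, 43.9% of higher and 31.3% of lower genes stood near white or beyond it. Their median positions were 0.712 and 0.599 on the log2 scale, against 0.671 over all tested genes.

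Of all lists, heat shock genes held the most rising calls. Of 25 tested members of a list of cytosolic and organellar chaperones and their regulators, 19 rose along the score and 0 fell, against 2.3 and 1.92% of all genes. The list's median difference from *gun1G* was 2.14 in *gun1M* and 2.77 in *gun1W* on the log2 scale, where all genes had −0.01 and 0.00. The median position of the 19 was 0.73, with 9 of them near white (above 0.75) and 10 in between, and in 16 of the 19 the marbled libraries overlapped the white ones and none of the green ones. With the AT3G06365 share as a term in the fit, only 5 of the 25 passed, at a list median of 2.07 in *gun1W*.

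*HSP21*, the small heat shock protein of the chloroplast, had 0.133, 0.135 and 0.0653 scaled TPM in *gun1G*, 36.8, 21.7 and 36.4 in *gun1M* and 15.4, 30.6 and 19.6 in *gun1W*. It was close to 0 in each green library, and marbled and white libraries overlapped. Marbled exceeded green by 4.84 ± 0.27 (SE, log2 scale, adjusted p = 0.000126) and white exceeded green by 4.31 (slope 2.15 ± 0.49 per step, adjusted p = 0.0235). Its curvature of 2.68 had a 95% interval of 2.17 to 3.20. The slope call was lost without gun1W 2 (adjusted p = 0.059) and without gun1G 1, 2 or 3 (0.0821 to 0.0841), and the curvature call without gun1M 1, while 4 genes passed the curvature test without gun1M 3.

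*HSP18.2*, a cytosolic small heat shock protein, had 1.47, 1.74 and 0.222 scaled TPM in *gun1G*, 41.0, 29.9 and 88.1 in *gun1M* and 48.0, 90.5 and 45.9 in *gun1W*. All marbled and white libraries lay far above the green ones and overlapped each other. The difference was 4.59 ± 0.44 in marbled (adjusted p = 0.00226) and 4.88 in white against green (slope adjusted p = 0.00851), at a position of 0.94. Other small heat shock genes varied more between the libraries of a group. AT1G53540, of the same cytosolic class, had 0.912, 0.704 and 0.337 scaled TPM in *gun1G*, 4.08, 13.7 and 43.0 in *gun1M* and 10.8, 48.1 and 24.5 in *gun1W*. Its lowest marbled library was gun1M 1 and its highest gun1M 3, and its call (slope adjusted p = 0.0159) was lost without gun1W 2 or without any 1 of the green libraries (0.0561 to 0.0599).

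The same order of marbled libraries recurred in the larger chaperones. *HSP70* (AT3G12580) had 6.205, 11.3 and 14.3 scaled TPM in *gun1G*, 25.3, 72.0 and 155 in *gun1M* and 131, 169.7 and 126 in *gun1W* (3.68 in white against green on the log2 scale, slope adjusted p = 0.00495, position 0.70). *Hsp70-2*, another cytosolic HSP70, had 2.497, 4.01 and 3.69 in *gun1G*, 14.8, 31.5 and 43.2 in *gun1M* and 64.4, 72.3 and 73.3 in *gun1W* (slope adjusted p = 0.000463, position 0.67). Its 3 groups did not overlap. *HSFA2*, the heat-induced transcription factor that sustains the response, had 0.224, 0.113 and 0.511 in *gun1G*, 1.02, 3.44 and 8.51 in *gun1M* and 4.103, 9.16 and 6.64 in *gun1W* (2.53 in white against green, slope adjusted p = 0.0129). Its call was lost without gun1G 1 or gun1G 2 (0.0503 and 0.0511). In each of these 3 genes gun1M 3, the marbled library with the lowest plastid share, was the highest of its group.

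The upstream sequence of 3 of these genes is shown because heat shock factors bind repeats of GAA in alternating orientation. Capitals mark the letters GAANNTTC or TTCNNGAA, found on either strand, in the 250 bases before the annotated gene start (TAIR10.1 from RefSeq, 5′ to 3′ towards the gene); where both overlap, they form the long element, GAANNTTC with NNGAA after it. The runs are from chr1:19980049-19980298 (plus strand) for AT1G53540, chr4:13819972-13820221 (minus strand) for *HSP21* and chr2:11135374-11135623 (plus strand) for *HSFA2*.
AT1G53540: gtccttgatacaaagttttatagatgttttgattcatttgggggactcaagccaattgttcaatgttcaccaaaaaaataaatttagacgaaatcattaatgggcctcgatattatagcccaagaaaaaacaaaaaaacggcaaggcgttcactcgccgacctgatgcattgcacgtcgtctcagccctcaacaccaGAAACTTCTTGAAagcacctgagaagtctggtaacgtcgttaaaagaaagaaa
HSP21: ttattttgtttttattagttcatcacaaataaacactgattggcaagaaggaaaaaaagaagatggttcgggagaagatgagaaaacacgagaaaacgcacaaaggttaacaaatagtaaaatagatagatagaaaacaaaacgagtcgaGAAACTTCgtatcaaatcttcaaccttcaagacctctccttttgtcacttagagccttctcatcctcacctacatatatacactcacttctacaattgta
HSFA2: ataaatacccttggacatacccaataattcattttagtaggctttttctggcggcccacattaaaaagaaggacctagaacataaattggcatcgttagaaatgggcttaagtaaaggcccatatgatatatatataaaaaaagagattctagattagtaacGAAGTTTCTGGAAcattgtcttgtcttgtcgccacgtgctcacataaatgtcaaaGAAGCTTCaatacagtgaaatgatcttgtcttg
The short forms stood in 8 of the 19 called heat shock genes (42.1%), against 2732 of all 17370, and the long form in 3 (15.8%), against 0.415%. Among all rising genes near white the short forms stood in 14.6%, and among those in between in 19.0%.

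Several genes outside the heat shock list also stood near white in marbled material. *BCB*, a copper-binding blue protein induced by stress, had 14.5, 8.73 and 4.86 scaled TPM in *gun1G*, 63.8, 44.9 and 127 in *gun1M* and 103, 110.2 and 70.6 in *gun1W* (2.92 ± 0.42 in marbled and 3.29 in white against green, slope adjusted p = 0.00959). *GolS1*, which makes the galactinol for raffinose sugars, had 10.5, 8.89 and 9.34 in *gun1G*, 50.3, 75.9 and 119 in *gun1M* and 80.3, 149.9 and 142 in *gun1W* (position 0.82, slope adjusted p = 0.00268). In both, marbled and white libraries overlapped above all green ones. *MES8*, a member of the methyl esterase family chosen after its values were seen for its narrow spread, had 0.861, 0.614 and 0.816 in *gun1G*, 7.52, 7.14 and 6.51 in *gun1M* and 5.82, 7.73 and 8.74 in *gun1W* (position 0.98, slope adjusted p = 0.00983). Its curvature of 1.07 did not pass the adjusted test (adjusted p = 0.122, 95% interval 0.74 to 1.399).

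Falling genes near white are given here by 4 of the 93. *PORB*, the protochlorophyllide oxidoreductase of greening seedlings, had 99.6, 122 and 129 scaled TPM in *gun1G*, 48.9, 34.2 and 27.3 in *gun1M* and 49.4, 22.7 and 23.9 in *gun1W*. Marbled and white overlapped below all green libraries, with −1.67 ± 0.30 in marbled (adjusted p = 0.0299) and −1.92 in white on the log2 scale (slope adjusted p = 0.0146). That slope call was lost without gun1W 2 or any 1 green library (0.0508 to 0.0571). *PHOT1*, a blue-light receptor, had 34.8, 49.7 and 45.0 in *gun1G*, 16.0, 10.6 and 16.3 in *gun1M* and 15.8, 10.7 and 7.98 in *gun1W* (position 0.83, slope adjusted p = 0.00842). *PIF4*, a growth-promoting transcription factor of the light response, had 21.5, 31.7 and 43.3 in *gun1G*, 12.6, 11.7 and 14.7 in *gun1M* and 8.93, 11.1 and 9.91 in *gun1W* (position 0.77, slope adjusted p = 0.00756), without overlap of its 3 groups. *XTH15*, a cell wall enzyme, fell by 2.69 at a position of 0.85 (slope adjusted p = 0.0279), a call lost without gun1W 2, gun1W 3 or any 1 green library (0.0607 to 0.0921).

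**Figure D3:**
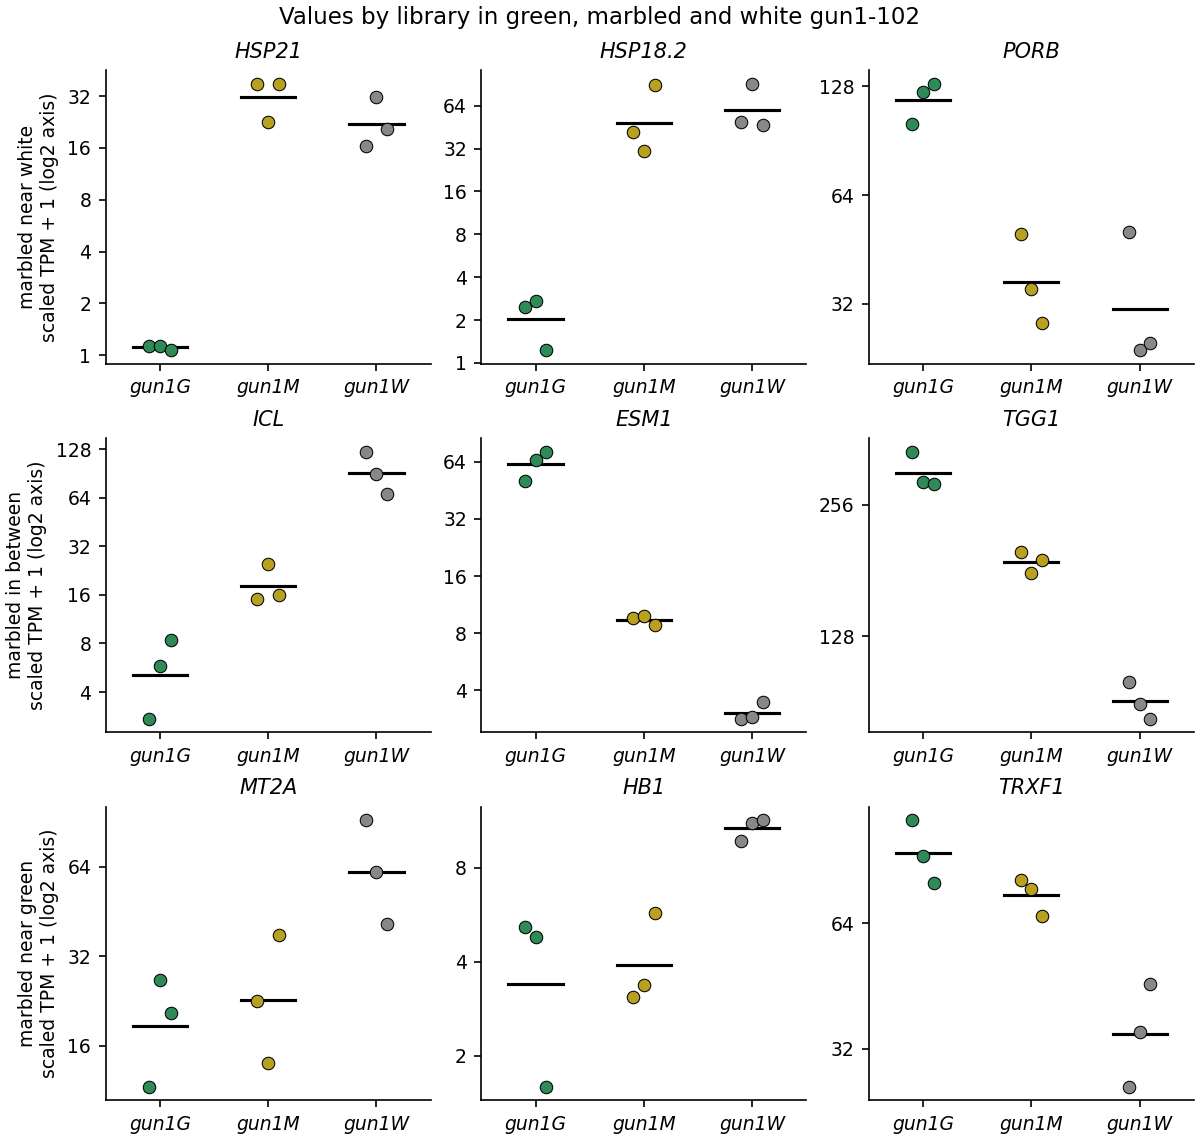
Scaled TPM + 1 on a log2 axis in each of 3 libraries of gun1G, gun1M and gun1W for 9 genes; points are libraries and bars the means of the log2 values. In the top row marbled libraries overlap the white ones, in the middle row the 3 groups stand apart, and in the bottom row marbled libraries overlap the green ones.

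Among rising genes with an in-between position, the early light-induced proteins of the plastid, which guard against excess light, differed most between white and green. *ELIP1* had 1.08, 1.45 and 2.66 scaled TPM in *gun1G*, 7.78, 31.7 and 31.8 in *gun1M* and 30.6, 76.5 and 83.3 in *gun1W* (4.48 on the log2 scale, slope adjusted p = 0.00176, position 0.67). *ELIP2* had 3.88, 3.25 and 3.04 in *gun1G*, 14.3, 52.0 and 51.2 in *gun1M* and 43.5, 126 and 133 in *gun1W* (4.38, slope adjusted p = 0.00182). In both genes the first library of marbled and of white material was the lowest of its group, and the marbled range reached that white library. On the linear scale their positions were 0.36 and 0.37. Where 2.3% of all tested genes rose and 1.92% fell, 6 of 13 tested genes of excess light and oxidative stress rose and 0 fell. One of them was *CSD2*, a superoxide dismutase of the plastid, at 21.8, 23.4 and 20.7 scaled TPM in *gun1G*, 60.6, 58.1 and 59.1 in *gun1M* and 77.6, 77.1 and 81.1 in *gun1W* (position 0.78, slope adjusted p = 0.00122).

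*ICL*, isocitrate lyase of the glyoxylate cycle that turns seed oil into sugar, had 1.73, 4.84 and 7.38 scaled TPM in *gun1G*, 14.1, 23.8 and 14.9 in *gun1M* and 123, 89.4 and 66.8 in *gun1W*. The groups stood apart, at 1.83 ± 0.39 in marbled (adjusted p = 0.050037, just short of the test) and 4.16 in white against green (slope adjusted p = 0.000427), with a position of 0.44 on the log2 scale and 0.15 on the linear scale. *MLS*, malate synthase of the same cycle, had 2.40, 2.56 and 4.15 in *gun1G*, 4.17, 4.00 and 2.81 in *gun1M* and 12.6, 8.12 and 6.43 in *gun1W* (position 0.17, slope adjusted p = 0.0216), with marbled and green overlapping. Its call was lost without gun1W 2, gun1G 1 or gun1G 2 (0.0665 to 0.0707). The summed seed storage markers were 5.03, 22.0 and 3.44 scaled TPM in *gun1G*, 8.27, 16.0 and 4.09 in *gun1M* and 51.6, 10.4 and 4.71 in *gun1W*, so that gun1W 1, the highest library for both genes, was also the highest for these; their part in the result was not tested.

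AT2G04050, annotated as a MATE efflux protein, had 0.0298, 0.205 and 0.0572 scaled TPM in *gun1G*, 2.86, 6.68 and 6.005 in *gun1M* and 7.40, 12.8 and 21.3 in *gun1W*. Its groups did not overlap (3.65 in white against green, slope adjusted p = 0.000975, position 0.67). Its upstream 250 bases (chr2:1339469-1339718, minus strand, TAIR10.1) are shown because they hold the mitochondrial dysfunction motif (CTTG, then 5 bases of any kind, then CANG) more than once, in capitals.
AT2G04050: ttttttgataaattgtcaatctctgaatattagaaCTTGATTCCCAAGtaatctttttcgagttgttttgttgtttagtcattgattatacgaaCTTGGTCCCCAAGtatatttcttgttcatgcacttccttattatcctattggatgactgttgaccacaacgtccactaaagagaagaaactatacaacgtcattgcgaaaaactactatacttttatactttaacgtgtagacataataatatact
That motif, sought on both strands, stood in 3.25% of rising genes, 0.601% of falling genes and 1.29% of all tested genes. Of 9 tested genes of the mitochondrial retrograde response 3 rose and 0 fell, where 2.3% of all genes rose and 1.92% fell. Among the 3 were *AOX1A*, the alternative oxidase, at 1.82 (slope adjusted p = 0.027) and the transcription factor *NAC13* at 2.06 (slope adjusted p = 0.0136), at positions of 0.70 and 0.73. *AOX1A* lost its call without gun1W 2, gun1W 3 or any 1 green library (0.0584 to 0.0929), and *NAC13* without gun1W 2 or gun1G 2 (0.0505 and 0.054).

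*Cpn60beta2*, a subunit of the chloroplast chaperonin, lay close to an even gradient, with 14.8, 15.4 and 18.3 scaled TPM in *gun1G*, 25.9, 40.8 and 47.4 in *gun1M* and 97.7, 89.6 and 79.8 in *gun1W*. Marbled exceeded green by 1.15 ± 0.22 and white exceeded marbled by 1.24 on the log2 scale (slope adjusted p = 0.00042), and its curvature of −0.05 had a 95% interval of −0.46 to 0.37. *ACS7*, an enzyme of ethylene synthesis, had 1.29, 1.92 and 1.98 in *gun1G*, 8.59, 6.72 and 6.63 in *gun1M* and 18.6, 12.7 and 11.3 in *gun1W* (position 0.65, slope adjusted p = 0.000463). AT5G12110, annotated as an elongation factor 1-beta, had 4.02, 5.65 and 3.96 in *gun1G*, 14.9, 16.4 and 26.4 in *gun1M* and 30.0, 35.0 and 39.5 in *gun1W* (position 0.68, slope adjusted p = 0.000706). None of these 3 genes had overlapping groups. AT4G12735, of unknown function, rose by 3.68 at a position of 0.68 (slope adjusted p = 0.00753).

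Genes of glucosinolate synthesis and breakdown, the mustard oil defence of the cabbage family, had the lowest median of all lists. Of 18 tested, 12 fell and 0 rose, against 1.92 and 2.3% of all genes. The list's median difference from *gun1G* was −0.97 in *gun1M* and −1.54 in *gun1W* (−0.67 in *gun1W* on TPM as deposited, with 5 falling and 1 rising). The median position of the 12 was 0.68, and in 6 of them the 3 groups stood apart. *ESM1*, which steers breakdown towards isothiocyanates, had 49.97, 64.9 and 71.4 scaled TPM in *gun1G*, 8.65, 8.83 and 7.83 in *gun1M* and 1.83, 1.88 and 2.46 in *gun1W*. Each group was tight and far from the next, with −2.73 ± 0.17 for marbled against green (adjusted p = 0.000195), −1.63 for white against marbled (adjusted p = 0.0225) and the smallest slope p of any gene (adjusted p = 5.58e-05). The curvature of *ESM1* was −0.55 (95% interval −0.88 to −0.22) and did not pass the adjusted test in limma (adjusted p = 0.49). Marbled stood at a position of 0.63 on the log2 scale and 0.89 on the linear scale. Its step between marbled and white was kept without gun1M 3, gun1G 1 or gun1G 3 and lost without each other library (0.06587 to 0.1345), while the step between green and marbled was kept in all 9 fits.

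*TGG1*, a myrosinase that splits glucosinolates, had 338, 287 and 285 scaled TPM in *gun1G*, 199, 177 and 191 in *gun1M* and 99.4, 88.5 and 81.7 in *gun1W*. Both steps passed, at −0.68 ± 0.15 for marbled against green (adjusted p = 0.049985) and −1.07 for white against marbled (adjusted p = 0.0444), but neither was stable: the first was kept only without gun1W 1 (otherwise 0.06579 to 0.1626) and the other in no fit without 1 library (0.05657 to 0.2294). *CYP79F1*, an entry enzyme of aliphatic glucosinolate synthesis, had 9.07, 8.21 and 10.3 in *gun1G*, 0.762, 1.53 and 1.93 in *gun1M* and 0.0967, 0.196 and 0.209 in *gun1W* (slope adjusted p = 0.00042, position 0.68). The regulator *MYB29* fell by 1.85 at a position of 0.49 and its relative *MYB28* fell by 1.49 at 0.68, the call of *MYB28* being lost without gun1G 1 or gun1G 3 (0.0659 and 0.0602). *CYP79F1* shares sequence with its neighbour *CYP79F2*, so that its level may hold reads of both.

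*LOX2*, the plastid lipoxygenase of jasmonate synthesis, had 35.4, 35.9 and 33.5 scaled TPM in *gun1G*, 4.43, 15.3 and 14.9 in *gun1M* and 1.197, 3.56 and 3.02 in *gun1W* (−3.39 in white against green, slope adjusted p = 0.00111, position 0.50). *CORI3*, a jasmonate-induced cystine lyase, had 14.6, 17.8 and 15.5 in *gun1G*, 2.52, 9.27 and 10.3 in *gun1M* and 0.61, 1.71 and 1.47 in *gun1W* (slope adjusted p = 0.00211, position 0.41). The groups stood apart in both, and gun1M 1 was the lowest marbled library in both. Only these genes and *AOC1* (position 0.39) fell among 22 tested of the jasmonate list and 0 rose, against 1.92 and 2.3% of all genes. The list's median difference was 0.31 in *gun1M* and 0.08 in *gun1W*.

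*SEN1*, a marker of darkness and sugar starvation, had 291, 161 and 105 scaled TPM in *gun1G*, 102, 31.2 and 42.6 in *gun1M* and 24.1, 12.9 and 8.04 in *gun1W* (−3.55, slope adjusted p = 0.00239, position 0.48). It was the only call among 16 tested genes of its list, where 4.22% of all genes were called. AT3G55240, of unknown function, had 11.1, 17.9 and 33.0 in *gun1G*, 5.04, 3.35 and 5.70 in *gun1M* and 2.00, 0.238 and 1.21 in *gun1W* (slope adjusted p = 0.00117). AT5G02540, annotated as an oxidoreductase, fell by 3.26 (slope adjusted p = 0.00789), with gun1M 1 well above the other marbled libraries. AT1G66100, a thionin, had 49.1, 41.0 and 46.3 in *gun1G*, 22.6, 22.6 and 15.73 in *gun1M* and 4.85, 5.67 and 7.17 in *gun1W*, and AT3G21330, a bHLH factor, had 27.8, 18.6 and 14.6 in *gun1G*, 8.08, 8.38 and 9.38 in *gun1M* and 2.196, 1.99 and 1.78 in *gun1W*. For both of the last genes each step passed the adjusted test (adjusted p = 0.0214 and 0.0322 for AT1G66100, 0.0348 and 0.041 for AT3G21330, in limma). The step between marbled and white was kept in 2 of the 9 fits without 1 library for each, without gun1M 3 or gun1G 1 for AT1G66100 (otherwise 0.07061 to 0.1669) and without gun1G 1 or gun1G 3 for AT3G21330 (otherwise 0.08495 to 0.176). The step between green and marbled was lost without gun1M 2, gun1G 2 or gun1G 3 for AT1G66100 (0.05413 to 0.0982) and in all fits but those without gun1W 1, gun1G 1 or gun1G 3 for AT3G21330 (0.05314 to 0.1215). *COR15A*, a cold-induced plastid protein, fell by 2.91 at a position of 0.27 (slope adjusted p = 0.0492), but gun1M 1 at 20.1 and gun1W 1 at 2.13 stood below the others of their groups, and its call was lost in each fit without 1 library except the one without gun1M 2 (0.0531 to 0.124).

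Over all tested genes 1.92% fell and 2.3% rose. Of 30 tested genes for photosystem and electron transport subunits 13 fell and 0 rose, with a list median of −0.46 in *gun1M* and −0.94 in *gun1W* against *gun1G*, which on TPM as deposited was −0.24 and 0.06, with 0 rising and 0 falling. The median position of the 13 was 0.38 on the log2 scale and 0.488 on the linear scale, none of them stood above 0.75, and in 11 the 3 groups of libraries stood apart. Of 21 tested light-harvesting protein genes 5 fell and 0 rose, with a list median of −0.20 in *gun1M* and −0.79 in *gun1W*, which on TPM as deposited was 0.02 and 0.21 with 3 rising and 0 falling. Members of the light-harvesting family are near-identical copies, so that their single values are uncertain.

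*PSBP-1*, of the oxygen-evolving complex, had 845, 741 and 761 scaled TPM in *gun1G*, 512, 482 and 499 in *gun1M* and 276, 291 and 262 in *gun1W*. Its groups were tight and evenly spaced, with −0.65 ± 0.14 for marbled against green (adjusted p = 0.0465), −0.85 for white against marbled (adjusted p = 0.1001) and a curvature of 0.10 (95% interval −0.16 to 0.36). *PSBQ-2*, of the same complex, had 404, 311 and 281 in *gun1G*, 204, 210.03 and 159.8 in *gun1M* and 86.7, 87.6 and 124 in *gun1W* (slope adjusted p = 0.00115, position 0.45). *ATPD*, the delta subunit of the plastid ATP synthase, had 185, 198 and 202 in *gun1G*, 145, 139 and 129.6 in *gun1M* and 74.1, 93.6 and 92.2 in *gun1W* (slope adjusted p = 0.00164, position 0.43). The same spacing was seen in *CAB3* (also called *LHCB1.2*), with 1253, 1454 and 1490 in *gun1G*, 1073, 1015 and 736 in *gun1M* and 621, 482 and 511 in *gun1W* (slope adjusted p = 0.00264, position 0.42), and in *LHCA4*, an antenna protein of photosystem I (position 0.35, slope adjusted p = 0.00589).

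The upstream sequences of *LHCA4* (chr3:17495034-17495283, minus strand) and *PSBQ-2* (chr4:2673244-2673493, minus strand, both TAIR10.1) are shown as examples of falling photosynthesis genes. Both hold the light-response motif CACGTG (G-box), and *PSBQ-2* also GATAAG (I-box), in capitals where they occur on either strand.
LHCA4: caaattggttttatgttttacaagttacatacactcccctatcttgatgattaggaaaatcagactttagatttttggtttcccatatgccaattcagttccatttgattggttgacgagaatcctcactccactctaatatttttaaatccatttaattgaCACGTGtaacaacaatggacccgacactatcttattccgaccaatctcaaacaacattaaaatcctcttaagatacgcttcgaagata
PSBQ-2: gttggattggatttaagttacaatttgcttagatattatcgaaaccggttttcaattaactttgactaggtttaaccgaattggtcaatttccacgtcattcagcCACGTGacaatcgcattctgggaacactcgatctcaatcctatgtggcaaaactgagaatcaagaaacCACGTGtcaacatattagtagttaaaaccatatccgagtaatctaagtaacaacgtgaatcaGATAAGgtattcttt
Of the 13 falling photosystem and electron transport genes, 3 held a G-box (23.1%) and 5 an I-box (38.5%), against 7.56 and 12.5% of all tested genes. Among all rising genes the shares were 8.75 and 18.5%, and among all falling genes 10.5 and 16.2%. The evening element AAAATATCT stood in 6.61% of falling genes, 2.0% of rising genes and 2.48% of all tested genes.

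In the scaled data, genes for carbon fixation and chlorophyll synthesis changed less in the median than the photosystem and light-harvesting lists. *PRK*, phosphoribulokinase of the Calvin cycle, had 194, 153 and 154 scaled TPM in *gun1G*, 154, 118 and 123 in *gun1M* and 95.9, 80.9 and 72.8 in *gun1W*, and *SBPASE* of the same cycle had 145, 112 and 119 in *gun1G*, 111, 107 and 96.8 in *gun1M* and 67.9, 65.1 and 70.9 in *gun1W*. Both had an adjusted p under 0.05 (0.00988 and 0.0104) and stayed under the 2-fold limit. Of the 18 tested genes of the cycle 1 rose and 1 fell, against 2.3 and 1.92% of all genes. Of 25 of tetrapyrrole synthesis 0 rose and 2 fell, *PORB* and *POR C* (position 0.63, slope adjusted p = 0.00524). Without the 2-fold limit, 7 and 3 genes of these lists fell and 1 and 0 rose, against 734 and 763 of all 17371 genes. The list medians in *gun1W* were −0.44 and −0.17. On TPM as deposited they were 0.56 and 0.80, with 4 and 10 genes rising and 0 falling. Plastid transcription and nuclear-encoded plastid ribosomal proteins had 0 calls among 22 and 26 genes, with median differences of 0.02 and −0.27 in *gun1W*; without the 2-fold limit, 0 and 4 passed, all 4 falling.

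**Figure D4:**
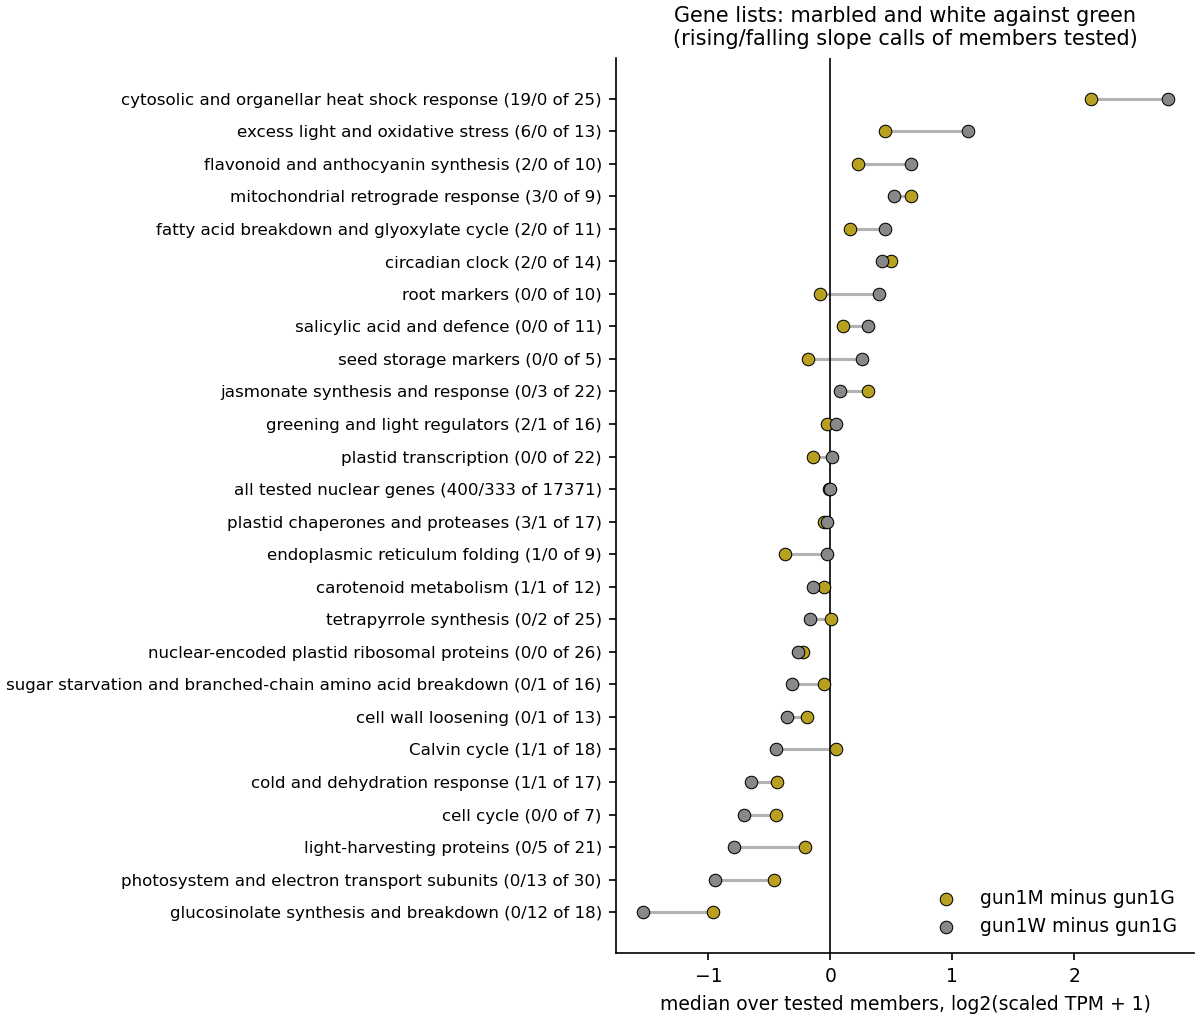
Median log2 difference from gun1G over the tested members of each list, for gun1M (yellow) and gun1W (grey), with rising and falling calls of the members tested in brackets. Heat shock genes lie at 2.14 and 2.77, and glucosinolate genes at −0.97 and −1.54; on TPM as deposited the gun1W medians of the light-harvesting and photosystem lists turn to 0.21 and 0.06.

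Only 35 genes called along the score stood near green in marbled material. *TRXF1*, a chloroplast thioredoxin that activates Calvin cycle enzymes in light, had 112, 92.2 and 78.9 scaled TPM in *gun1G*, 80.6, 76.2 and 65.6 in *gun1M* and 24.9, 34.2 and 44.8 in *gun1W*. Marbled and green overlapped above all white libraries, at −0.34 ± 0.22 for marbled (adjusted p = 0.432) and −1.45 for white against green (slope adjusted p = 0.00829). *PPT2*, a plastid phosphoenolpyruvate carrier, had 6.04, 6.32 and 4.71 in *gun1G*, 3.63, 5.78 and 4.68 in *gun1M* and 0.677, 1.59 and 2.26 in *gun1W* (position 0.16, slope adjusted p = 0.0157), a call lost without gun1W 2 or gun1G 2 (0.0533 and 0.0512). AT5G20000, annotated as a proteasome ATPase, had 2.92, 4.08 and 3.12 in *gun1G*, 4.71, 3.99 and 4.78 in *gun1M* and 13.7, 11.6 and 10.8 in *gun1W*. It was among the few genes whose second step passed, at 1.24 for white against marbled (adjusted p = 0.0444), a call lost in each of the 9 fits without 1 library (0.0527 to 0.2076), with the replicate block and with the AT3G06365 term, and its slope adjusted p was 0.00268.

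AT2G07732, of the chromosome 2 region that copies the mitochondrial genome, had the smallest p of that second step, with 59208, 60831 and 63579 scaled TPM in *gun1G*, 51736, 54523 and 36148 in *gun1M* and 6654, 6620 and 7391 in *gun1W* (−2.76 for white against marbled, adjusted p = 0.00248, position 0.12). It was the only gene to keep that call in all 9 fits without 1 library, and organelle reads cannot be told apart from its own. *NAC103*, a transcription factor of protein-folding stress in the endoplasmic reticulum, had 0.577, 0.521 and 0.733 scaled TPM in *gun1G*, 1.27, 1.31 and 1.49 in *gun1M* and 6.32, 4.62 and 7.42 in *gun1W* (1.58 for white against marbled, adjusted p = 0.0322, kept only without gun1G 1 and otherwise 0.05925 to 0.1653). AT3G32990, an annotated pseudogene, had 13.1, 15.1 and 13.9 in *gun1G*, 19.8, 17.7 and 8.61 in *gun1M* and 1.61, 1.96 and 2.89 in *gun1W* (−2.32, adjusted p = 0.0332, kept only without gun1M 3 or gun1G 1 and otherwise 0.07258 to 0.1669), and a slope call lost without gun1W 2, gun1W 3 or gun1G 2 (0.0507 to 0.0704). AT4G22513, of the lipid-transfer protein family, had 23.56, 17.1 and 16.6 in *gun1G*, 8.02, 8.73 and 11.961 in *gun1M* and 2.01, 3.06 and 2.69 in *gun1W* (−1.55, adjusted p = 0.0444, kept only without gun1G 1 and otherwise 0.0836 to 0.2076).

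*CASP5*, of the root endodermal barrier, had 11.7, 14.5 and 9.98 scaled TPM in *gun1G*, 18.1, 9.90 and 17.7 in *gun1M* and 38.8, 28.3 and 19.0 in *gun1W* (position 0.25, slope adjusted p = 0.0404), and *HB1*, a low-oxygen haemoglobin, had 4.17, 3.78 and 0.593 in *gun1G*, 2.097, 2.38 and 4.72 in *gun1M* and 8.72, 10.1 and 10.4 in *gun1W* (position 0.12, slope adjusted p = 0.0477). *CASP5* lost its call in 7 of the 9 fits without 1 library (0.0512 to 0.119, kept without gun1W 3 and without gun1M 2), and *HB1* in 6 (0.0519 to 0.145, kept without gun1M 1, gun1M 2 and gun1G 1). *MT2A*, a metallothionein, had 10.6, 25.7 and 19.7 in *gun1G*, 21.6, 13.0 and 36.7 in *gun1M* and 91.0, 60.4 and 40.1 in *gun1W* (1.73 in white against green, position 0.17, slope adjusted p = 0.0409), a call lost in 6 of the 9 fits (0.0513 to 0.129, kept without gun1M 1, gun1M 2 and gun1G 2). The summed root markers were 207, 279 and 299.9 scaled TPM in *gun1G*, 269, 221 and 297 in *gun1M* and 580, 443 and 298 in *gun1W*, with 9 or 10 of 14 markers at 1 TPM or more in every one of these libraries. They were highest in gun1W 1 and gun1W 2, as *CASP5* and *MT2A* were, while gun1W 3 lay within the green range and was the highest library for *HB1*; their part in the result was not tested. Of the 10 root markers tested, 0 were called.

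Not all genes called in marbled were also called in white. Of the 221 genes (1.27%) that differed between marbled and green, 191 also differed between white and green, as 4.51% of all tested genes did, and 30 were not called there. Both comparisons use the same green libraries, so that part of this overlap and of the shared direction is built in. Some of the 30 only just missed the 2-fold limit, such as AT5G10580 at −0.998 and *YSL7* at 0.968 in white against green. Only 1 of the 221, AT1G73120, lay on opposite sides of green in marbled and in white. *FER1*, the iron-storage ferritin of the chloroplast, had 212, 173 and 161 scaled TPM in *gun1G*, 54.3, 85.3 and 64.9 in *gun1M* and 97.4, 160 and 212 in *gun1W*. All marbled libraries lay below all others, at −1.42 ± 0.28 against green (adjusted p = 0.0377), while white and green overlapped. This call of *FER1* was kept only without gun1W 1 or gun1W 3 among the fits without 1 library (otherwise 0.0687 to 0.132) and was lost with the replicate block (adjusted p = 0.0637). AT1G73120, an F-box protein, had 20.4, 27.7 and 22.4 in *gun1G*, 4.93, 2.97 and 5.61 in *gun1M* and 59.5, 22.7 and 22.6 in *gun1W*, with both steps past the adjusted test in opposite directions (−2.18, adjusted p = 0.020001, and 2.59, adjusted p = 0.0444). The first step was lost without gun1G 2, gun1G 3 or gun1M 2 (0.078 to 0.0947) and the other in all 9 fits (0.07199 to 0.2227). Its curvature of −2.38 did not pass (adjusted p = 0.122). Marbled libraries lay beyond all green and all white ones in 2.23% of tested genes. That share was not compared with what a random order of the 9 libraries would give.

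The remaining lists held few genes and few calls, to be read beside the 2.3% of all tested genes that rose and the 1.92% that fell. The circadian clock had 2 rising of 14, *PCL1* at a position of 0.42 and *RVE1* at 0.90, and the greening and light regulators had 2 rising and 1 falling of 16, among them *CGA1* (1.18, slope adjusted p = 0.0314), whose call was lost without gun1W 1, gun1W 2 or any 1 green library (0.0526 to 0.107). *GPRI1* (*GLK1*), a regulator of chloroplast development, fell below the 2-fold limit (−0.97, slope adjusted p = 0.0216). Plastid chaperones and proteases had 3 rising and 1 falling of 17, with *CPN60A* at 1.04 (lost without gun1W 3) and *PTAC4* (*VIPP1*) at −1.08 (lost without gun1G 3) close to the limit. Flavonoid synthesis had 2 rising of 10, among them *UGT78D2* (1.44, position 0.78), endoplasmic reticulum folding 1 rising of 9 (*BZIP60*, position 0.77), fatty acid breakdown 2 rising of 11, carotenoid metabolism 1 rising and 1 falling of 12, cold response 1 rising and 1 falling of 17 and cell wall loosening 1 falling of 13. Salicylic acid and defence, cell cycle, seed storage and shoot apex lists had 0 calls among 11, 7, 5 and 3 genes.

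*GUN1* itself had 22.1, 29.3 and 32.1 scaled TPM in *gun1G*, 27.8, 26.3 and 38.7 in *gun1M* and 42.8, 35.9 and 27.7 in *gun1W*, and the mean in Col-0 was 49.4. The 3 *gun1* groups overlapped, and no trend passed (slope 0.17 ± 0.11 per step, adjusted p = 0.36005). These values sum all annotated *GUN1* transcripts and do not show which part of the gene was read. The study reports that *GUN1* transcription is absent from part of an exon and from the exons after it in all mutant seedlings. The level in the mutant libraries is therefore not a measure of intact *GUN1* transcript.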

How the data were processed

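The report uses the 9 *gun1-102* libraries, with 3 Col-0 libraries for orientation. RNA was depleted of ribosomal RNA and sequenced by strand. The values deposited by the authors are TPM per transcript, made with Salmon on the AtRTD3 transcript set; Trimmomatic, FastQC, STAR and the build TAIR10 are also named in the submitters' processing notes, with versions not given in the sources used here. TPM keeps no read depth, so no counting interval is given. A second deposited table holds the plastid rows of the first and was not used.

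Transcripts were summed per gene model, keeping single nuclear models with at least 1 TPM in at least 3 of the 9 libraries. Libraries were scaled to the median ratio of nuclear genes at 1 TPM or more in all 9. Fold changes are on the log2(scaled TPM + 1) scale, which understates changes of low genes. limma 3.58.1 (R 4.3.3, moderated with a mean trend) fitted a straight line on the score, with calls at a Benjamini-Hochberg adjusted p (over 17371 genes) below 0.05 with a slope of at least 0.5 per step, and a group-mean fit for the steps, where a call needed the same p and a 2-fold change, and for curvature (the same p). The fits were tested on simulated data. Tables and figures used Python 3.11.15, numpy 2.4.6, pandas 2.3.3 and matplotlib 3.10.9. The column labels call the libraries of a group biological replicates (Biorep) but do not say whether they came from separate cultures. The p-values measure the spread between these libraries, and its technical part is not known.

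Members and lists were chosen with earlier results of these data known. Genes were named by a rule: at 5 TPM or more in the highest group, the largest slopes among calls (8 in each direction), the largest among calls whose 3 groups stand apart (6 in each direction), those past the step and curvature tests, up to 3 members of each list with the smallest slope p, *GUN1* and *CAB3*. The leading genes near white or near green, the genes past the step between white and marbled, and *HSFA2*, *MES8*, *FER1*, *MYB28* and *MYB29* were added after their values were seen. Alternatives were another scaling, pseudocount, filter, gene set, variance trend, a term for AT3G06365, a replicate block and leaving out each library; classifying the calls of *gun1W* against *gun1G*, and leaving out the copy of the mitochondrial genome, were added after seeing the data. Promoters are the 250 bases before each RefSeq gene start in TAIR10.1, found for 17370 of the 17371 genes.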

Additional observations from a re-analysis of the deposited data

How the results depend on the processing

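With 5 in place of 1 added before the log, 188 genes rose and 148 fell along the score, *gun1M* was above *gun1G* for 53 and below for 30, *gun1W* was above *gun1G* for 196 and below for 148 and above *gun1M* for 0 and below for 1, curvature passed for 0, and the mean position of the marbled libraries was 0.559 for lower genes. On TPM as deposited 5839 rose and 73 fell (98.8% rising, against 54.6% in the scaled data and 48.9% after quantile normalization), *gun1W* was above *gun1G* for 5860 and below for 74 and above *gun1M* for 2212 and below for 14, *gun1M* was below *gun1G* for 29, 2 genes had a curvature below the middle, and the positions were 0.357 for higher and 0.705 for lower genes; *GPRI1* and *SBPASE* turned to 0.016 and 0.13. With the AT3G06365 share as a term 652 fell, *gun1M* was above *gun1G* for 255 and below for 227, *gun1W* was below *gun1G* for 594 and above *gun1M* for 0 and below for 1, the positions were 0.791 for higher and 0.754 for lower genes, and *GUN1* turned to −0.14. With nuclear genes summed to one total *gun1M* was above *gun1G* for 80, *gun1W* was above *gun1M* for 1 and below for 1, and 1 gene had a curvature below the middle. A filter of 5 TPM left *gun1M* below *gun1G* for 55 genes and a position of 0.544 for lower genes, a filter above 0 TPM left *gun1W* above *gun1M* for 0 and below for 0, and without the variance trend *gun1W* was above *gun1M* for 1. On linear scaled TPM the positions were 0.558 for higher and 0.733 for lower genes. The causes were not tested. With a replicate block 354 rose and 285 fell (330 and 281 shared with the fit without it), *gun1M* was below *gun1G* for 50, *gun1W* was above *gun1M* for 0 and below for 0, and curvature passed for 0; same-numbered libraries share only a number, with correlations of their deviations from −0.29 to 0.33. Leaving out 1 library each, 220 to 522 genes rose and 220 to 385 fell, *gun1M* was above *gun1G* for 43 to 186 and below for 13 to 113, *gun1W* was above *gun1G* for 254 to 483 and below for 244 to 369 and above *gun1M* for 0 to 4 and below for 1 to 7, curvature lay above the middle for 0 to 4 and below for 0 to 1, and the positions were 0.642 to 0.76 for higher and 0.555 to 0.66 for lower genes. Of 68 named genes, the test was lost for 12 with 5 added, 16 with the AT3G06365 term, 18 on deposited TPM and 6 with the block. Counted as pairs of a gene and a fit without 1 library, it was lost in 87, unchanged in 519 and gained in 6. The number of libraries limits what curvature can show, and TPM gives no depth.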
